A study of Saccharomyces cerevisiae with 23 samples.

Results

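DBP2 (YNL112W) encodes a DEAD-box RNA helicase of Saccharomyces cerevisiae, and its intron was followed in 23 libraries of multiplexed primer extension sequencing. The gene is 1 of 284 introns listed in the deposited tables, taken by its identifier YNL112W;1, and was present in all 23 libraries. It was chosen by measured values of these data, namely its high unspliced share at 48 h and the larger share there in the mutants. The changes from log phase to 48 h, the differences between mutants and wild type at 48 h and the differences between those changes are therefore given as descriptions without a test. Tests are given for the log-phase comparisons, for the mutants against each other and for the wild-type sets against each other. They draw on libraries that also enter the changes described, so their p-values are not independent of the choice of DBP2.

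DEAD-box helicases use ATP to open short RNA duplexes and to remodel RNA-protein complexes. Dbp2 is the yeast member of the family that includes human DDX5 (p68). It acts on RNA during and after transcription and is known to work with the export adaptor Yra1 in assembling export-competent mRNA-protein particles. The DBP2 intron is known from yeast genetics for its part in a feedback in which Dbp2 protein limits expression of its own gene. MUD1 and NAM8 encode subunits of the U1 snRNP, which recognises the 5' splice site at the start of spliceosome assembly.

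The study set mutants of these U1 proteins against wild type in 2 growth states, and the strains were of the BY background in minimal medium with 2% glucose. The groups were mud1D at 48 h (labelled saturation), mud1D in log phase, nam8D at 48 h, nam8D in log phase and, from the labels' wild-type sets WTa and WTb, wild type at 48 h and in log phase. Each group had 3 libraries except WTa in log phase, which had 2, so that wild type had 6 libraries at 48 h and 5 in log phase with both sets pooled. The labels name the mutant mud1D while its table carries another suffix, and MUD1 itself was listed in 1 of the 6 mud1D libraries with 1 mature count, against 1328 to 5543 mature counts in each of the other 17 libraries. NAM8 was not among the listed introns, so its loss was not checked here. Strain names in the labels differ within groups and recur across genotypes, and were not used. Library totals ran from 3343811 to 12068685 counts, and DBP2 received between 1688 and 4941 counts per library. Nothing in the labels says that replicates were separate cultures, so errors and p-values measure the spread between these libraries, which may be technical. In this assay cDNA is made only from gene-specific primers next to chosen introns, and the deposited tables split the reads of each intron into mature (spliced) and premature (unspliced) counts.

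In build R64 the DBP2 coding region lies on the plus strand of chromosome XIV from 413639 to 416281, and its single annotated intron from 414912 to 415913. The intron is 1002 bases long, the longest of the 223 tested introns that could be matched to a single annotated coding intron, where the median was 156 bases and the next longest had 766. It also lies late, after 1273 of 1641 coding bases (77.6%), a position exceeded by 3 of the 223. The median intron followed 27 coding bases. The codons for the DEAD motif that names the family begin at residue 267 of 546, in the first exon. The first 424 complete codons stand before the intron, and an unspliced RNA read in frame reaches a stop codon that begins at base 30 of the intron, after 434 residues in all.

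The sequences at which the intron is recognised are shown because they are what the U1 particle and the later spliceosome read, printed 5' to 3' from RefSeq's R64 genome with the first 6 intron bases, the branch point motif and the last 3 intron bases in capitals.
DBP2 5' splice site, chrXIV:414882-414941: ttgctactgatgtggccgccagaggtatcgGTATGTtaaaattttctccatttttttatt
DBP2 branch point, chrXIV:415840-415896: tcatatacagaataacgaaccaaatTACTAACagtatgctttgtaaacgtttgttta
DBP2 3' splice site, chrXIV:415884-415943: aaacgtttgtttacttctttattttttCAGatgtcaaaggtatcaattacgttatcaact
All of these are common forms. The hexamer GTATGT opened 174 of the 223 introns (78.0%), TACTAAC searched on the sense strand was found in 187 (83.9%), and CAG closed 94 (42.2%). TACTAAC occurred once in the DBP2 intron, 953 bases after its first base and 42 bases before its end. A match of letters does not show where the spliceosome acted.

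**Figure D1:**
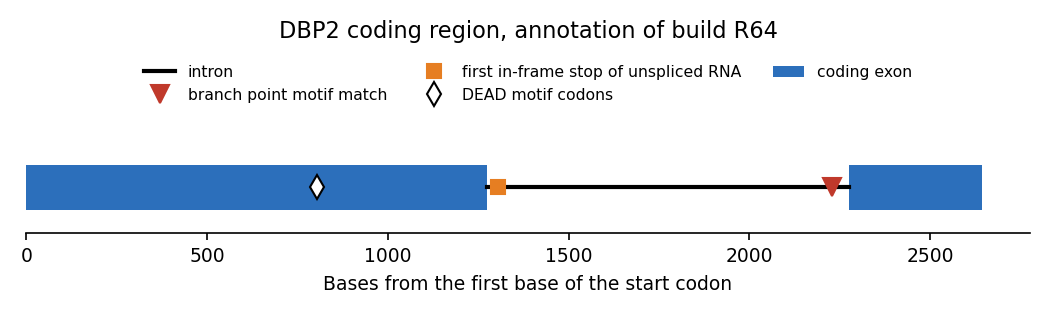
DBP2 coding region to scale, in bases from the start codon (x axis): boxes are the coding exons, the line is the intron of 1002 bases, and the diamond marks the DEAD motif codons. The intron lies late in the gene, with the stop codon met by unspliced RNA near its start and the branch point motif near its end.

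At 48 h most DBP2 RNA primed in the mutants still held the intron, while most was spliced in log phase in every group. In mud1D at 48 h the premature share, the percentage of DBP2 counts that were unspliced, was 87.6%, 84.9% and 80.6% in the 3 libraries, against 5.89%, 6.12% and 5.81% in mud1D in log phase. In nam8D at 48 h it was 84.5%, 84.3% and 83.8%, against 11.6%, 10.5% and 12.5% in nam8D in log phase. In both mutants DBP2 was mostly unspliced at 48 h and mostly spliced in log phase, with no overlap between the growth states. In RNA from whole cultures, fewer cells with a product and less of it per cell cannot be told apart.

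Wild type lay between these extremes at 48 h. The WTa libraries had 42.7%, 35.2% and 40.7% at 48 h, against 8.49% and 8.14% in log phase. The WTb libraries had 42.1%, 47.7% and 33.1% at 48 h, against 7.39%, 6.99% and 7.55% in log phase. Every 48 h library of a mutant exceeded every 48 h library of wild type, and every 48 h library of any strain exceeded every log-phase library. The means at 48 h were 84.4% ± 3.52 in mud1D (SD, n = 3), 84.2% ± 0.363 in nam8D (SD, n = 3) and 40.2% ± 5.31 in wild type (SD, n = 6). The log-phase means were 5.94% ± 0.159 in mud1D (SD, n = 3), 11.5% ± 0.970 in nam8D (SD, n = 3) and 7.71% ± 0.602 in wild type (SD, n = 5), so that nam8D was highest and mud1D lowest. The 95% Wilson interval of a single library's share, which covers counting error only, spanned 86.0% to 89.1% in mud1D 48 h replicate 1 and 5.18% to 6.70% in mud1D log replicate 1. Counting alone would give an SD of 0.959 percentage points in WTb at 48 h, where the observed SD was 7.34, so the libraries of that group varied by more than their depth allows. In nam8D at 48 h the observed SD of 0.363 lay under the 0.860 that counting alone would give.

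**Figure D2:**
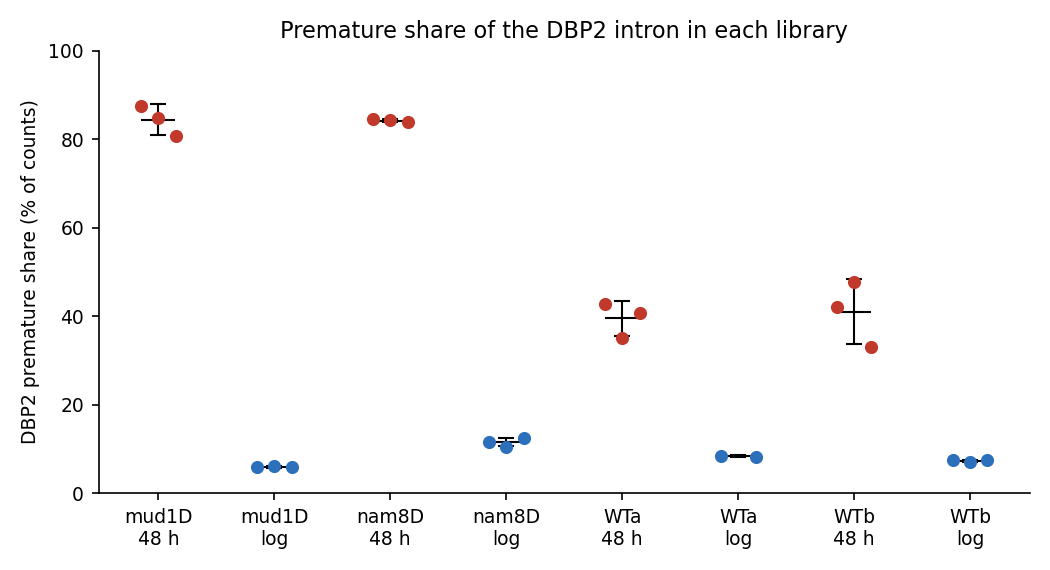
Premature share of the DBP2 intron (y axis, percent of DBP2 counts) in each library by group, red for 48 h and blue for log phase; horizontal marks are group means and bars are 1 SD. Both mutants sit at 80.6% or above at 48 h, wild type between 33.1% and 47.7%, and all log-phase libraries at 12.5% or below.

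A share can change through the unspliced RNA, the spliced RNA or both, so each was scaled separately to the library total as CPM, counts scaled to 1000000 library counts. In the mutants both moved, in opposite directions. Mature DBP2 was at 65.2, 77.2 and 96.9 CPM in mud1D at 48 h, against 499.9, 559 and 647 CPM in mud1D in log phase. Premature DBP2 was at 461, 433 and 403 CPM in mud1D at 48 h, against 31.3, 36.4 and 39.9 CPM in mud1D in log phase. Neither measure overlapped between the growth states, and mean mature CPM was 7.13-fold lower and mean premature CPM 12.0-fold higher at 48 h.

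The nam8D libraries had the same arrangement. Mature DBP2 was at 61.1, 67.0 and 71.3 CPM in nam8D at 48 h, against 440.2, 550.4 and 519.5 CPM in nam8D in log phase. Premature DBP2 was at 332, 360.2 and 369 CPM in nam8D at 48 h, against 57.7, 64.7 and 73.9 CPM in nam8D in log phase. Mean mature CPM was 7.57-fold lower and mean premature CPM 5.41-fold higher at 48 h, again without overlap.

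In wild type the premature counts differed between the growth states in both sets, but the mature counts did so in 1 set only. WTa had 289, 358 and 297 mature CPM at 48 h, against 299.9 and 324 mature CPM in log phase, which overlap. WTb had 356, 271 and 409.9 mature CPM at 48 h, against 545, 541 and 453 mature CPM in log phase, which do not. Premature DBP2 was at 215, 194 and 204 CPM in WTa at 48 h, against 27.8 and 28.7 CPM in WTa in log phase, and at 259, 247 and 203 CPM in WTb at 48 h, against 43.5, 40.7 and 36.9 CPM in WTb in log phase. In log phase every WTa library lay under every WTb library in both measures. This difference in scale between the sets touches every comparison of DBP2 CPM with wild type in log phase below.

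In the mutants the sum of both products differed far less between the growth states than either product. It averaged 512 ± 13.2 CPM in mud1D at 48 h and 605 ± 78.5 CPM in mud1D in log phase (SD, n = 3 each). In nam8D it averaged 420.2 ± 24.0 CPM at 48 h and 569 ± 62.3 CPM in log phase (SD, n = 3 each). Wild type averaged 550.5 ± 52.5 CPM at 48 h (SD, n = 6) and 468 ± 123 CPM in log phase (SD, n = 5). The ratio of the means of the sum was thus 0.847 in mud1D, 0.739 in nam8D and 1.18 in wild type. The wild-type sets differed in this ratio, at 1.53 in WTa and 1.05 in WTb. These values are relative to the other primed targets, and a change in the RNA content of the cell would not be seen in them.

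**Figure D3:**
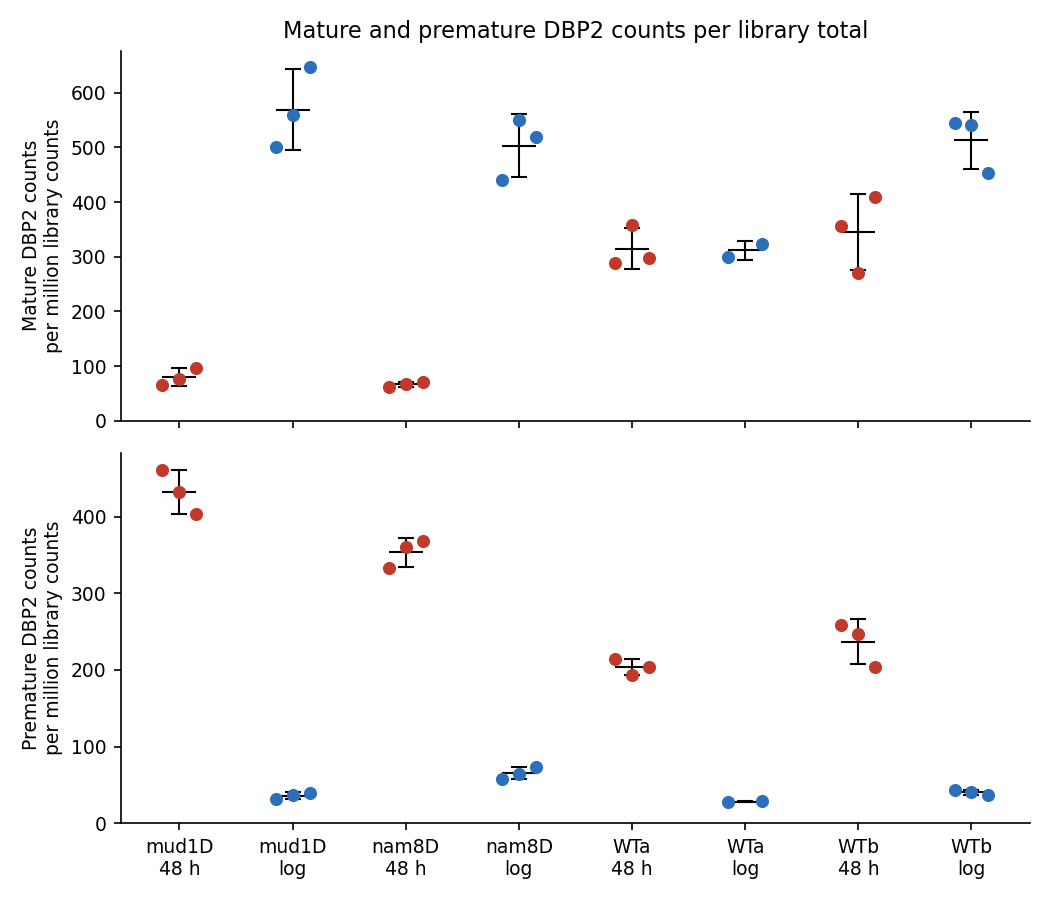
Mature (upper) and premature (lower) DBP2 CPM (y axes) in each library by group, red for 48 h and blue for log phase; horizontal marks are means and bars are 1 SD. Mature counts are at most 96.9 CPM in both mutants at 48 h, and premature counts there lie above those of every other group.

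Set among the 265 introns listed in every library, DBP2 stood at or near the top of the order of splicing changes at 48 h. In mud1D its log2 change in the ratio of premature to mature counts was 6.43 ± 0.18 (SE, edgeR fit of all libraries), rank 1 of 265, with RPL18B (6.20) next. In nam8D it was 5.36 ± 0.18 (SE), rank 2, between RPL22B (5.43) and RPL18B (5.33). In wild type it was 2.99 ± 0.13 (SE), rank 3, between RPL22B (3.83) and RPS9A (2.76). The median intron changed by 1.08 in mud1D, 1.10 in nam8D and 0.29 in wild type, so DBP2 stood 5.36, 4.25 and 2.70 above the median on the log2 scale. Ratios of this kind changed widely, and edgeR's quasi-likelihood test called 80.4% of introns in mud1D, 80.8% in nam8D and 80.4% in wild type in either direction (Benjamini-Hochberg adjusted p under 0.05). RPL18B, RPL22B and RPS9A encode ribosomal proteins and belong to duplicated gene pairs. The sources used here do not say how reads of such copies were separated.

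The components of this ratio held different places in the order in each strain. Mature DBP2 counts per library total differed by -2.83 ± 0.16 on the log2 scale in mud1D (SE), rank 4 from the lowest, and by -2.92 ± 0.16 in nam8D (SE), rank 3 from the lowest. In wild type they differed by -0.28 ± 0.10 (SE), rank 70 from the lowest, and with WTa alone the value was 0.013. Premature DBP2 counts differed by 3.59 ± 0.13 in mud1D (SE) and by 2.70 ± 0.10 in wild type (SE), rank 8 from the highest in both. In nam8D they differed by 2.43 ± 0.12 (SE), rank 38. Premature counts of the median intron were themselves higher at 48 h, by 1.63 in mud1D, 1.58 in nam8D and 0.93 in wild type on the log2 scale. Relative to that median, premature DBP2 was higher by 1.96 in mud1D, 0.85 in nam8D and 1.78 in wild type. Relative to the median of mature counts, mature DBP2 differed by -3.10 in mud1D, -3.16 in nam8D and -0.69 in wild type.

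**Figure D4:**
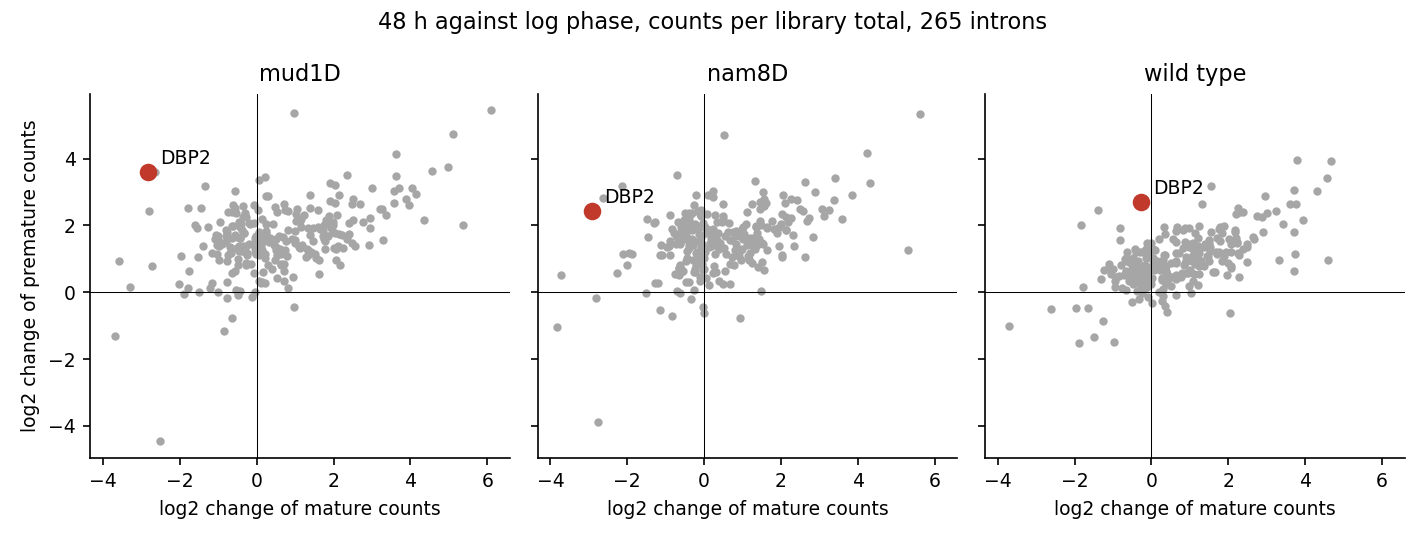
Log2 change at 48 h against log phase of mature (x axis) and premature (y axis) counts per library total, 1 point per intron for 265 introns, with DBP2 in red, for mud1D, nam8D and wild type. In both mutants DBP2 lies near the left edge with a gain in premature counts, and in wild type it lies near 0 on the x axis.

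At 48 h the mutants differed from wild type at DBP2 mainly in spliced RNA. The log2 difference in the ratio was 3.02 ± 0.15 for mud1D against wild type (SE), rank 2 of 265 after the meiotic gene REC107 (3.14), and 2.99 ± 0.15 for nam8D against wild type (SE), rank 5. Mature counts per library total differed by -2.05 ± 0.14 in mud1D (SE) and by -2.31 ± 0.14 in nam8D (SE), rank 2 from the lowest in both, with REC107 below it. The median intron differed by -0.16 in mud1D and -0.13 in nam8D in mature counts. Premature DBP2 differed by 0.98 ± 0.10 in mud1D (SE) and by 0.69 ± 0.10 in nam8D (SE), close to the median intron at 0.92 and 0.77, and ranked 117 and 148. With TMM factors, which set the bulk of introns to no change, the premature difference became 0.033 in mud1D and -0.083 in nam8D, so its direction in nam8D depends on the scaling. The mature difference kept its direction, at -1.89 in mud1D and -2.18 in nam8D. The change from log phase to 48 h was larger than in wild type by 3.44 ± 0.22 log2 units for mud1D and by 2.37 ± 0.21 for nam8D (SE), in comparisons that called 70.2% and 78.9% of introns in either direction. The mutants share the wild-type libraries in these comparisons.

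In log phase the mutants went opposite ways at DBP2. The ratio of premature to mature counts was lower in mud1D than in wild type, by a log2 difference of -0.42 ± 0.16 (SE, edgeR adjusted p = 0.025), and every mud1D library had a lower share than every wild-type library. Of all introns 55.8% were called in this comparison, mostly higher, and the median intron differed by 0.31. The call was lost against WTb alone (-0.32, adjusted p = 0.18) and when any of 3 single libraries was left out: WTa replicate 2 (-0.40, adjusted p = 0.064), mud1D replicate 1 (-0.42, adjusted p = 0.058) or mud1D replicate 3 (-0.40, adjusted p = 0.069). In nam8D the ratio was higher than in wild type, by 0.62 ± 0.15 (SE, edgeR adjusted p = 0.0015), where 36.6% of introns were called and the median was 0.17. All 3 nam8D libraries lay above all 5 wild-type libraries. Between the mutants the log2 difference was 1.04 ± 0.17 for nam8D against mud1D (SE, edgeR adjusted p = 1.5e-05), rank 3 of 265, with 36.2% of introns called and no overlap of libraries.

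The components in log phase were tested too. Premature DBP2 per library total was higher in nam8D than in wild type, by 0.95 ± 0.11 (SE, edgeR adjusted p = 3.9e-09), rank 9, with 43% of introns called. For mud1D against wild type the premature difference did not pass (0.09 ± 0.12, SE, edgeR adjusted p = 0.55, 95% interval -0.15 to 0.32), with 52.8% of introns called. Mature DBP2 was higher in mud1D than in wild type by 0.51 ± 0.12 (SE, edgeR adjusted p = 0.0019), with 45.7% called, and in nam8D by 0.33 ± 0.12 (SE, edgeR adjusted p = 0.037), with 38.9% called. Both mature calls rested on WTa, where DBP2 CPM was lowest. Against WTb alone the mature difference was 0.15 in mud1D (edgeR adjusted p = 0.51) and -0.027 in nam8D (edgeR adjusted p = 0.90). The nam8D mature call was also lost when 1 library was left out, namely WTa replicate 2 (0.30, edgeR adjusted p = 0.11) or replicate 3 (0.36, 0.059), WTb replicate 3 (0.29, 0.075), or nam8D replicate 2 (0.26, 0.17) or replicate 3 (0.31, 0.11).

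By 48 h no difference between the mutants was detected in the ratio of premature to mature DBP2 counts. The log2 difference in ratio was -0.03 ± 0.18 for nam8D against mud1D (SE, edgeR adjusted p = 0.92), with a 95% interval of -0.40 to 0.33, while 27.2% of introns were called. The 48 h values of both mutants were among those used to choose DBP2, so this p-value is not independent of that choice. Some amounts per library total at 48 h did not overlap between the mutants. Premature DBP2 was at 403 CPM or above in mud1D and at 369 CPM or below in nam8D. The sum of both products averaged 512 CPM in mud1D and 420.2 CPM in nam8D, also without overlap of libraries. Mature DBP2 overlapped between the mutants. These amounts were not tested between the mutants, and the share of all introns without such overlap was not counted. They also depend on the scaling. Against wild type at 48 h, premature DBP2 per library total differed by 0.98 in mud1D and 0.69 in nam8D. The median intron differed by 0.92 and 0.77. With TMM factors the DBP2 values were 0.033 and -0.083. The wild-type sets, which differed at many introns, were close in the DBP2 ratio but not in DBP2 CPM in log phase. There mature DBP2 averaged 312 CPM in WTa and 513 CPM in WTb, and the premature shares did not overlap either. In log phase WTa against WTb differed in ratio by 0.20 ± 0.20 (SE, edgeR adjusted p = 0.40, 95% interval -0.19 to 0.60), with 47.5% of introns called. At 48 h they differed by -0.08 ± 0.16 (SE, edgeR adjusted p = 0.67, 95% interval -0.41 to 0.25), with 57% called. Their changes from log phase to 48 h differed by -0.29 ± 0.25 (SE, edgeR adjusted p = 0.44), with 24.5% called. The 48 h values of wild type also entered the choice of DBP2, so p-values drawn from them are not independent of it.

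Genes known, like DBP2, for feedback on their own or a paralogue's RNA were examined as a list. It held 8 introns, all measured. Of these 7 had higher and 1 lower ratios at 48 h in mud1D, in nam8D and in wild type, where 64.9%, 70.9% and 51.7% of all introns were called higher and 15.5%, 9.81% and 28.7% lower. The median log2 change of the list was 1.47 in mud1D, 1.74 in nam8D and 1.42 in wild type, against 1.08, 1.10 and 0.29 over all introns. All introns of the list but that of YRA1 belong to ribosomal protein genes, mostly paralogue pairs. A difference from other ribosomal protein introns was not tested. The components varied within the list. In mud1D mature counts rose at 48 h for RPS14B (2.06), RPS9A (1.03) and RPS14A (0.31) on the log2 scale. They fell for RPL22A (-2.72), RPS9B (-1.52) and RPL30 (-1.03) and hardly changed for YRA1 (-0.05). Premature counts of RPS9B changed by 0.01. RPL22B, whose pre-mRNA is bound by Rpl22 protein, had a premature share of 74.4% in mud1D at 48 h and 6.95% in mud1D in log phase, a log2 change of 5.29 ± 0.16 (SE). Its mature counts changed by -2.81 and its premature counts by 2.44 on the log2 scale, the same signs as in DBP2. RPL22A, its paralogue, changed by 3.52 ± 0.14 (SE) in mud1D. The exception was RPS14B, which is repressed by the Rps14 protein and whose ratio fell by 1.10 in mud1D, by 0.97 in nam8D and by 0.45 in wild type on the log2 scale.

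YRA1, which encodes the mRNA export adaptor that partners Dbp2, also has a long intron under feedback from its own protein. Its ratio rose at 48 h by 1.42 ± 0.16 in mud1D (SE, edgeR adjusted p = 8.6e-10), by 1.41 ± 0.16 in nam8D (SE, edgeR adjusted p = 1.05e-09) and by 0.61 ± 0.12 in wild type (SE, edgeR adjusted p = 3.25e-05). At 48 h its premature share was 79.8% in mud1D and 84.4% in nam8D, against 54.5% in wild type. In log phase the YRA1 share was 59.8% in mud1D and 67.2% in nam8D, against 27.6% in WTa and 63.0% in WTb, so a high log-phase share was not limited to the mutants. Its wild-type sets stood far apart, also at 48 h, at 35.5% in WTa and 73.5% in WTb, while those of DBP2 stood at 39.5% and 41.0%.

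The list of RNA processing, export and decay genes held 15 genes, of which 13 gave 15 measured introns, since SUS1 and TAD3 had 2 each and MUD1 and PSP2 were not listed in every library. In mud1D 10 of the 15 introns were higher and 1 lower at 48 h, in nam8D 10 were higher and 2 lower, and in wild type 5 were higher and 6 lower. The shares of all introns called higher were 64.9%, 70.9% and 51.7%, and those called lower 15.5%, 9.81% and 28.7%, so the mutant counts of higher introns lay near the background. The medians were 0.76, 0.66 and -0.22 on the log2 scale, against 1.08, 1.10 and 0.29 over all introns. STO1, which encodes the large subunit of the nuclear cap-binding complex, rose most in this list, by 2.29 ± 0.17 in mud1D, 2.26 ± 0.17 in nam8D and 1.39 ± 0.12 in wild type (SE). MTR2, which encodes the partner of the export receptor Mex67, rose by 1.52 in mud1D, 1.27 in nam8D and 0.43 in wild type. Nearly all MTR2 counts were premature throughout, at an intron that was not matched to a single annotated coding intron. The mean share went from 98.5% to 99.5% in mud1D, 98.1% to 99.2% in nam8D and 98.0% to 98.5% in wild type. MPT5, an mRNA-binding repressor gene, fell by 2.34 in wild type and by 0.94 in nam8D and did not pass in mud1D (-0.38, edgeR adjusted p = 0.055). Its share went from 98.0% to 90.3% in wild type, 98.4% to 97.0% in nam8D and 98.0% to 97.4% in mud1D. NMD2, which encodes a factor of nonsense-mediated decay, had log2 differences of 0.54 ± 0.15 in mud1D (SE), 0.01 ± 0.14 in nam8D (SE, edgeR adjusted p = 0.97) and -0.33 ± 0.11 in wild type (SE). Against wild type at 48 h, 15 of the 15 introns were higher in mud1D and 14 in nam8D, where 90.6% and 88.3% of all introns were called higher and 1.13% in each lower.

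DBP2 combines a long with a late intron, and these features were followed separately. Of the 18 other introns of at least 500 bases, 16 were higher and 1 lower at 48 h in mud1D, 15 higher and 2 lower in nam8D, and 13 higher and 3 lower in wild type. Of all introns 64.9%, 70.9% and 51.7% were called higher and 15.5%, 9.81% and 28.7% lower. The median log2 change of the long introns was 1.34 in mud1D, 1.37 in nam8D and 0.66 in wild type, against 1.08, 1.10 and 0.29 over all introns. The 3 longest after DBP2 were those of YRA1 (766 bases), GCR1 (751 bases) and MPT5 (640 bases). GCR1, a gene for a transcription factor of glycolysis, went the other way, with a ratio that fell by 1.40 in mud1D, by 1.70 in nam8D and by 2.67 in wild type on the log2 scale. Of the 14 other introns with at least 300 coding bases before them, 8 were higher and 4 lower in mud1D, 6 higher and 2 lower in nam8D, and 4 higher and 7 lower in wild type, with medians of 0.88, 0.36 and -0.21. Over all introns 64.9%, 70.9% and 51.7% were called higher and 15.5%, 9.81% and 28.7% lower, with medians of 1.08, 1.10 and 0.29. The 14 late introns include that of HAC1, which begins CCGTGA, ends CCG and is removed outside the spliceosome. The 3 that follow more coding sequence than DBP2 were SRC1, CQD1 and PCH2. SRC1, which encodes an inner nuclear membrane protein, had log2 differences of 1.16 ± 0.17 in mud1D, -0.01 ± 0.17 in nam8D and -1.12 ± 0.13 in wild type (SE). CQD1, known for coenzyme Q distribution in the cell, rose by 0.65 in mud1D and 1.25 in nam8D and fell by 1.11 in wild type. PCH2, a meiotic checkpoint gene, fell by 2.18 in mud1D and by 2.59 in wild type and did not pass in nam8D (-1.19 ± 0.62, SE, edgeR adjusted p = 0.079). Against wild type at 48 h all 14 late introns were higher in mud1D and 13 in nam8D, near the 90.6% and 88.3% of all introns called higher. The medians of the late introns were 1.40 and 1.87, against 1.11 and 1.01 over all introns and 3.02 and 2.99 for DBP2.

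The introns whose splicing followed DBP2 most closely over the 23 libraries were those of RPL21B, BMH2, RPL16A, IMD4 and RPL21A. Pearson's r of the log2 odds of premature counts was 0.985, 0.983, 0.982, 0.982 and 0.981, as a description over libraries that share strain and growth state. RPL21A, RPL21B and RPL16A encode proteins of the large ribosomal subunit, BMH2 a 14-3-3 protein and IMD4 an enzyme of guanine nucleotide synthesis, and all of them have a duplicate gene. The likeness was in the pattern and not in the level. At 48 h in mud1D the premature share was 53.7% for IMD4, 35.4% for BMH2 and 0.958% for RPL21A, against 84.4% for DBP2.

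The components differed even among these. In mud1D mature IMD4 changed by -3.59 on the log2 scale and premature IMD4 by 0.95. Mature BMH2 changed by 0.97 and premature BMH2 by 5.36. DBP2 showed both, with -2.83 for mature and 3.59 for premature counts. The 4 of these introns with an annotated coding intron, all but BMH2, ran from 290 to 421 bases. They shared TACTAAC and the ending CAG with DBP2, and 3 of them opened with GTATGT, while RPL16A opened with GTACGT. Mature counts most like those of DBP2 belonged to SIM1 of the cell wall (r = 0.942), PMI40 of mannose metabolism (r = 0.920) and RPL22A (r = 0.903). Premature counts most like those of DBP2 belonged to the small-subunit ribosomal protein gene RPS30A (r = 0.987), MRA1 (r = 0.983) and ARF2 of vesicle transport (r = 0.981), in 23 libraries that all share the general gain in premature counts at 48 h.

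**Figure D5:**
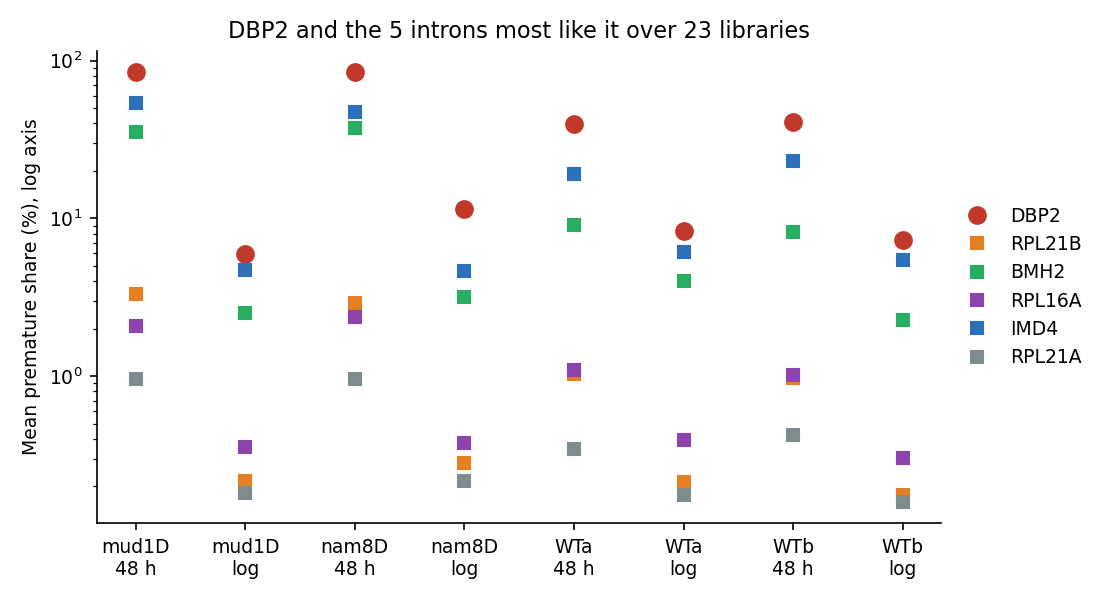
Mean premature share (y axis, log scale) in each group for DBP2 (red circles) and the 5 introns with the largest Pearson's r to it over 23 libraries (squares). All are higher at 48 h than in log phase in each strain, and DBP2 has the highest share in every group.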

How the data were processed

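Per the labels' protocols, total RNA was extracted with hot acid phenol and analysed by multiplexed primer extension sequencing. The deposited tables hold raw, whole-number mature and premature counts per intron and library, per the file headers. Build R64 and the tools STAR 2.7.2b, fastp 0.20.0 and FastQC appear in the submitters' processing notes without roles. The read assignment and any use of molecular identifiers are not stated in the sources used here, and intervals cover counting error only.

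Ratios of premature to mature counts were fitted for the 265 introns listed in all libraries (mean count of at least 20, which all met) with edgeR 4.0.16 in R 4.3.3. Each library gave 2 columns, its premature and its mature counts, and the quasi-likelihood fit held library terms and, for the premature column, group terms. Mature and premature counts were also fitted separately with the library total as library size. Tests were two-sided and adjusted by Benjamini-Hochberg over all introns at 0.05. Wild type is the mean of WTa and WTb. Levels are CPM. Alternatives used DESeq2 1.42.0 and limma 3.58.1. Fits were tested on simulated data. Python 3.11.15 with scipy 1.17.1 was used for the rest.

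DBP2, the lists and the tests were chosen with earlier results of these data known. Genes named are the list members, the 3 longest and 3 latest introns, the 5 introns most like DBP2 in ratio and the 3 in each kind of count, and neighbours in the order of changes. Replicate numbers recur across groups, but same-numbered log-phase and 48 h libraries of a strain did not deviate together, so the fits have no replicate term. Same-numbered libraries of different strains were not compared in this way. A chi-square test between replicates gave at least 12.0 per degree of freedom, so no library repeated another in its group.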

Additional observations from a re-analysis of the deposited data

Results flagged for a closer look

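The change of DBP2 splicing from log phase to 48 h was larger in each mutant than in wild type. The log2 change in the ratio of premature to mature counts differed by 3.44 ± 0.22 for mud1D against wild type (SE), rank 1 of 265 introns, with RPL16B (3.27) next. It differed by 2.37 ± 0.21 for nam8D against wild type (SE), rank 5. The median intron differed by 0.72 in mud1D and 0.81 in nam8D, and 70.2% and 78.9% of introns passed the test of this difference. DBP2 was chosen for this pattern, so no p is given for it. Its mutant libraries at 48 h all lay above those of wild type, and their log-phase share was 5.94% in mud1D and 11.5% in nam8D, against 7.71% in wild type.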

How the results depend on the processing

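The log2 changes of DBP2 in ratio at 48 h kept their direction under every alternative run. Centring each library on its median intron (limma) lowered them to 5.67 in mud1D, 4.25 in nam8D and 2.71 in wild type. It lowered the differences from wild type at 48 h to 2.13 in mud1D and 2.09 in nam8D, and those between the changes to 2.96 and 1.54. Leaving out single libraries gave 6.25 to 6.64 in mud1D, 5.28 to 5.42 in nam8D and 2.89 to 3.11 in wild type. For mud1D against wild type in log phase it gave -0.44 to -0.40, and WTb alone gave -0.32. Introns called there numbered 148, or 84 with WTb alone, and for nam8D 97, or 33.

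Scaling moved the counts per library total. TMM factors shifted the median premature change by -1.62 in mud1D, -1.51 in nam8D and -0.93 in wild type. Premature DBP2 then changed by 1.97, 0.92 and 1.78 with TMM, and by 1.96, 0.87 and 1.75 with RLE factors. Against wild type at 48 h, premature DBP2 differed by 0.033 (TMM) and 0.041 (RLE) in mud1D and turned to -0.083 (TMM) and -0.15 (RLE) in nam8D. Mature DBP2 changed by -3.16 in mud1D and -3.19 in nam8D with RLE, and in wild type by -0.57 (TMM) and -0.73 (RLE). With WTa alone the wild-type change was 0.013 in mature and 2.85 in premature counts, and with WTb alone -0.57 and 2.55.

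In log phase the mature difference for nam8D lost its call with TMM (0.28), RLE (0.32) and limma at a pseudocount of 0.1 or 1 (0.33 in each), ranged from 0.26 to 0.42 without single libraries, losing the call without WTa replicate 2 or 3, WTb replicate 3 or nam8D replicate 2 or 3, and turned to -0.027 with WTb alone. For mud1D it was 0.15 with WTb alone. The premature difference for mud1D was 0.09 by library total, turned to -0.16 with TMM and -0.17 with RLE, and was called with WTa alone (0.35). The cause was not tested. The replicate block changed no call, and correlations of same-numbered log-phase and 48 h libraries within a strain ran from -0.22 to 0.23. With it the mud1D ratio changed by 6.43. No intron fell under the mean count minimum, so dropping it changed nothing.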

Other observations

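Some introns combined a loss of spliced RNA with a gain of unspliced RNA per library total. A 2-fold limit for both, chosen after the values were seen, was passed at 48 h against log phase by 17 of 265 introns in mud1D and by 13 in nam8D, DBP2 included. Wild type had 2, RPL22B and RPL18B, and DBP2 was not among them. These counts depend on the scaling, since premature counts of the median intron were themselves higher, with a log2 change of 1.63 for mud1D and 1.58 for nam8D. With TMM or RLE factors premature DBP2 differed by 0.92 or 0.87 in nam8D, under the 2-fold limit, and by 1.97 or 1.96 in mud1D. The premature gain of RPL22B in mud1D, a log2 change of 2.44 per library total, exceeded that of the median intron by less than 2-fold. In mud1D 195 further introns passed the limit for premature gain alone and 13 for mature loss alone, and in nam8D 193 and 10. The largest mature loss of this kind was that of DBP2 in both mutants. Introns that passed in both mutants included those of RPL22B, RPL18B, RPL7A, RPL14A, RPL2B, RPL21B and RPL6B, all large-subunit ribosomal protein genes. PMI40, which encodes an enzyme of mannose metabolism, and DTD1, which encodes a D-aminoacyl-tRNA deacylase, also passed in both.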
